A study of Arabidopsis thaliana with 36 samples.

Results

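The shoots of nlp7-1, an Arabidopsis thaliana mutant in the gene of the transcription factor NLP7, were compared with the shoots of the wild type Col-0 across all genes. The comparison rests on 3 nlp7-1 and 3 Col-0 shoot libraries, 6 of the 36 libraries of the series, chosen by genotype and tissue as their labels give them. All plants were 42 days old and were raised on sand with 5 mM nitrate, a supply the labels call non-limiting. Stratification lasted 3 days at 4 °C. Days were short, 8 h at 21 °C, and nights lasted 16 h at 18 °C. Shoot means the rosette, from which total RNA was extracted, and each genotype has 3 biological replicates per tissue. Values of 3 other genotype and tissue groups are set beside the main ones where they bear on a gene: shoots of the double mutant nlp2-3 nlp7-1, roots of nlp7-1 and Col-0, and shoots of a second wild type, Col-4. The ecotype label reads Col-0 for every library, Col-4 included, and the labels do not give the insertion, the parent line or the number of backcrosses of nlp7-1, which is 1 mutant line.

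NLP7 belongs to the NIN-like proteins, RWP-RK transcription factors that bind nitrate-responsive elements in promoters. Nitrate is a signal as well as a nutrient in plants, and when it is supplied NLP7 is retained in the nucleus, where it switches on genes for nitrate uptake, nitrate and nitrite reduction and the reductant these reactions use. In leaves, nitrite reduction and ammonium assimilation take place in the chloroplast, and nitrogen status is also tied to growth, cold and drought responses and defence.

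The nlp7-1 shoot libraries held 22250099 to 31657474 counted fragments and the Col-0 shoot libraries 18150510 to 28719852, and the 10 most abundant genes took 8.89 to 9.14% and 8.94 to 9.41% of them. Levels are given as CPM, counts scaled to 1e+06 per library with TMM (trimmed mean of M values) factors, and a gene was called where edgeR's quasi-likelihood test gave a Benjamini-Hochberg adjusted p under 0.05 over all 19137 genes tested. Fold changes are log2 values of nlp7-1 over Col-0 ± the standard error (SE). Flower, pollen and root hair marker genes were close to absent. Summed levels were 0.474 to 0.944 CPM in nlp7-1 and 0.992 to 1.11 CPM in Col-0 for 11 flower genes. For 11 root hair genes they were no more than 0.316 CPM in nlp7-1 and 0.409 CPM in Col-0. Other root lists were detected: 14 root marker genes summed to 243 to 303 CPM in nlp7-1 and 274 to 296 CPM in Col-0. Most of that sum came from PIP2;2, at means of 173 CPM in nlp7-1 and 184 CPM in Col-0, followed by SCR and PYK10. SHR, GL2 and AKT1 averaged 8.2 to 11.7 CPM, and SKOR, NPF7.2 and PRX72 at most 1.26 CPM in either genotype. For 14 casparian strip and suberin genes the sums were 8.69 to 9.93 CPM in nlp7-1 and 11.4 to 13.8 CPM in Col-0. No tested gene of these lists was called in the main fit, but only 1 flower gene, 9 root marker genes and 5 casparian strip and suberin genes were tested. DESeq2 called the flower gene lower, 1 root marker gene higher and 1 casparian strip or suberin gene lower. On leaving out single libraries, at most 2 casparian strip and suberin genes were called lower. Whether root material contributed to the levels of the root lists was not tested. In whole rosettes, fewer cells of a type and less RNA per cell cannot be told apart.

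NLP7 transcript itself was present at 23.6, 21.5 and 18.6 CPM in nlp7-1 shoots, against 48.8, 48.9 and 48.1 CPM in Col-0 shoots. The groups did not overlap, and the transcript was lowered but not lost in the mutant. The log2 fold change was -1.19 ± 0.08, with an edgeR adjusted p of 3.8e-10, and the neighbouring gene TRE1 was not called, at -0.37. The position of the mutation relative to the counted exons is not given in the sources used here, so the remaining counts do not tell whether a full transcript was made. Of the other members of the family, NLP3 rose to 14.7, 17.2 and 13.3 CPM in nlp7-1, against 7.74, 8.2 and 10.2 CPM in Col-0, a log2 fold change of 0.80 ± 0.16 with an edgeR adjusted p of 0.0019. NLP2, the other family member mutated in this series, stood at 51.1, 53.8 and 55.4 CPM in nlp7-1 and 53.9, 52.5 and 54.8 CPM in Col-0, and NLP1, NLP4, NLP5, NLP6, NLP8 and NLP9 were not called either.

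Across the transcriptome, 1870 genes were called, 9.77% of those tested, with 926 higher in nlp7-1 (4.84%) and 944 lower (4.93%). Most differences were small, with a median size of 0.39 on the log2 scale, and 258 genes were called with at least a 2-fold change (1.35%). Those larger changes were mostly decreases, 192 genes against 66 that rose. The count depends on single libraries: leaving out nlp7-1 replicate 1 gave 1144 calls and leaving out nlp7-1 replicate 2 gave 1231, while 955 were called on leaving out Col-0 replicate 3. The 3 nlp7-1 and 3 Col-0 values did not overlap for 28.4% of all tested genes, so separation of the 6 libraries alone is common here. Col-4 shoots differed from Col-0 shoots at 152 genes, 0.794% of those tested, and 41 of these genes are also among the 1870.

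**Figure D1:**
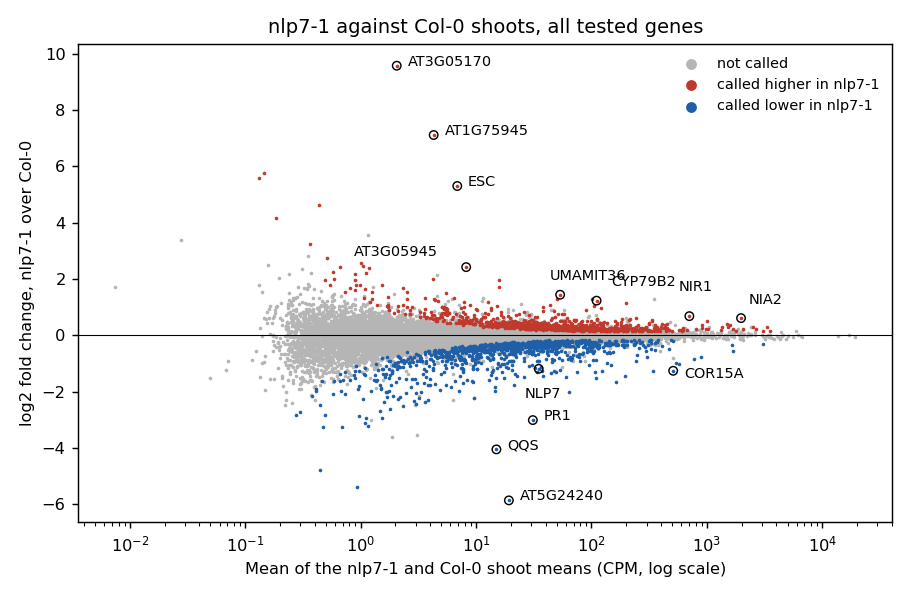
Log2 fold change in shoots, nlp7-1 over Col-0, against the mean level in CPM on a log scale, 1 point per tested gene, with the 926 called higher in red, the 944 called lower in blue and the rest in grey. The circled genes are described in the text; the widest changes, such as ESC at 5.30 and AT5G24240 at -5.86, belong to genes of low to moderate level, and highly expressed genes such as NIA2, at 0.61, moved less. The height of AT3G05170 depends on the fit, since it had no count in Col-0.

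Nitrate signalling genes that were called all fell: 5 of the 15 tested, the mutated gene NLP7 included, beside 4.93% of all tested genes. None rose, beside 4.84% of all tested genes. Besides NLP7 these were LBD38 and LBD39, LOB-domain repressors of nitrogen-responsive genes, BT1, a BTB-TAZ scaffold protein, and CIPK23, a kinase that acts on nitrate transport. LBD39 was at 11.3, 9.76 and 9.47 CPM in nlp7-1 against 16.7, 13.8 and 13.3 CPM in Col-0, and BT1 at 18.9, 17.3 and 20.1 CPM in nlp7-1 against 25.1, 28.7 and 33.7 CPM in Col-0. The log2 fold changes were -0.52 ± 0.11 for LBD39, -0.63 ± 0.11 for BT1 and -0.38 ± 0.09 for LBD38, with edgeR adjusted p of 0.00382, 0.00032 and 0.0103. BT1 was also lower in Col-4 than in Col-0, by a log2 change of -0.44 with an edgeR adjusted p of 0.0454. LBD37, the third repressor of that group, was not called at 0.09, and the CIPK23 call, at -0.26, was lost on leaving out any library but nlp7-1 replicate 3, with edgeR adjusted p of 0.0694 to 0.124.

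Several genes of nitrate reduction went the other way. NIA2, the main nitrate reductase of leaves, rose to 2554, 2354 and 2246 CPM in nlp7-1, against 1621, 1613 and 1464 CPM in Col-0. NIR1, the nitrite reductase of the chloroplast, was at 954, 940 and 706 CPM in nlp7-1 and 590, 553 and 482 CPM in Col-0. UPM1, which makes the siroheme precursor that nitrite reductase needs, was at 145, 171 and 106 CPM in nlp7-1 and 76.6, 69.2 and 58.9 CPM in Col-0. For each of these 3 genes every nlp7-1 library lay above every Col-0 library. UPM1 is also one of the widest changes named, for which such separation was required. The log2 fold changes were 0.61 ± 0.07 for NIA2, 0.68 ± 0.14 for NIR1 and 1.04 ± 0.17 for UPM1, with edgeR adjusted p of 7.31e-06, 0.00861 and 0.00161. The NIR1 call was lost without Col-0 replicate 3, where its adjusted p was 0.0508, and the UPM1 call in a fit of the 6 libraries alone, where it was 0.0594.

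The other nitrate reductase gene, NIA1, did not share this rise, at 88, 92.3 and 57.1 CPM in nlp7-1 and 95.4, 102 and 66.5 CPM in Col-0. In both genotypes replicate 3 was the lowest, and the log2 fold change of -0.15 ± 0.21 was not called. Of the 19 nitrogen assimilation genes tested, 6 were called higher and 1 lower, beside 4.84% and 4.93% of all tested genes. Their median log2 change was 0.14, beside a median of 0.0038 over all tested genes. GLU1, the ferredoxin-dependent glutamate synthase, rose by 0.29 ± 0.05, and ASN3, an asparagine synthetase, by 0.32 ± 0.08, though the ASN3 call was lost without nlp7-1 replicate 3 (edgeR adjusted p = 0.064) or Col-0 replicate 3 (0.0952). GDH3, a glutamate dehydrogenase, rose to 7.52, 6.39 and 8.08 CPM in nlp7-1, against 3.63, 3.9 and 3.86 CPM in Col-0, while GDH1 was called at -0.31 with overlapping groups, a call lost on leaving out nlp7-1 replicate 2 or 3 or Col-0 replicate 1 or 3, with edgeR adjusted p of 0.0903 to 0.2. GLN2, the chloroplast glutamine synthetase, was not called, at 0.14 ± 0.05 with an edgeR adjusted p of 0.0665.

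Several genes that supply reducing power rose beside nitrite reductase. Of 11 tested genes of the oxidative pentose phosphate pathway and the root-type ferredoxin system, 5 were called higher and none lower, beside 4.84% and 4.93% of all tested genes. The 5 were the glucose-6-phosphate dehydrogenases G6PD2 and G6PD3, the 6-phosphogluconate dehydrogenase PGD3, the ferredoxin reductase RFNR2 and the ferredoxin FD3. RFNR2 was at 37.4, 38.7 and 35.1 CPM in nlp7-1 and 26.4, 26.9 and 23.4 CPM in Col-0. PGD3 was at 135, 142 and 122 CPM in nlp7-1 and 95.9, 96.3 and 74.1 CPM in Col-0. The groups were apart for both, and the log2 fold changes of the 5 genes ran from 0.45 to 0.59. The FD3 call was lost without nlp7-1 replicate 1 (edgeR adjusted p = 0.0609) or Col-0 replicate 2 (0.0553). G6PD4, with means of 0.236 CPM in nlp7-1 and 0.726 CPM in Col-0, was at -1.65 ± 0.54 and not called (edgeR adjusted p = 0.0539). DESeq2 called 1 gene of the list lower, and leaving out single libraries gave at most 1. AT5G62720, annotated as an integral membrane protein of the HPP family and chosen after its values were seen, rose to 63.1, 66.6 and 50.3 CPM in nlp7-1, against 30.9, 32.8 and 20.5 CPM in Col-0, a log2 fold change of 1.09 ± 0.17.

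Nitrate transporters changed in both directions, with 4 of 18 tested genes higher and 2 lower, beside 4.84% and 4.93% of all tested genes. NPF7.3, which loads nitrate into the xylem, was at 57.9, 55.3 and 70.6 CPM in nlp7-1 and 29.7, 35.7 and 35 CPM in Col-0, a log2 fold change of 0.87 ± 0.13. NPF6.3, the dual-affinity nitrate transporter and sensor also called NRT1.1, was at 224, 184 and 216 CPM in nlp7-1 and 152, 141 and 159 CPM in Col-0, a change of 0.47 ± 0.07. The anion channel gene SLAH3 rose by 0.54 ± 0.10 and the vacuolar nitrate exchanger gene CLCA by 0.41 ± 0.12, though the CLCA call was lost without nlp7-1 replicate 1 or 2 or Col-0 replicate 2 or 3, with edgeR adjusted p of 0.088 to 0.143. NPF1.2, which moves nitrate between xylem and phloem in leaves, fell by 0.39, and NRT2.7, a vacuolar nitrate transporter, fell by 0.29, a call lost without nlp7-1 replicate 2 (edgeR adjusted p = 0.0588) or Col-0 replicate 3 (0.0771). NRT2.1, the high-affinity uptake transporter of roots, was barely detected in shoots, at 1.15, 1.1 and 0.269 CPM in nlp7-1 and 0.349, 0.369 and 0.217 CPM in Col-0, and was not called.

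**Figure D2:**
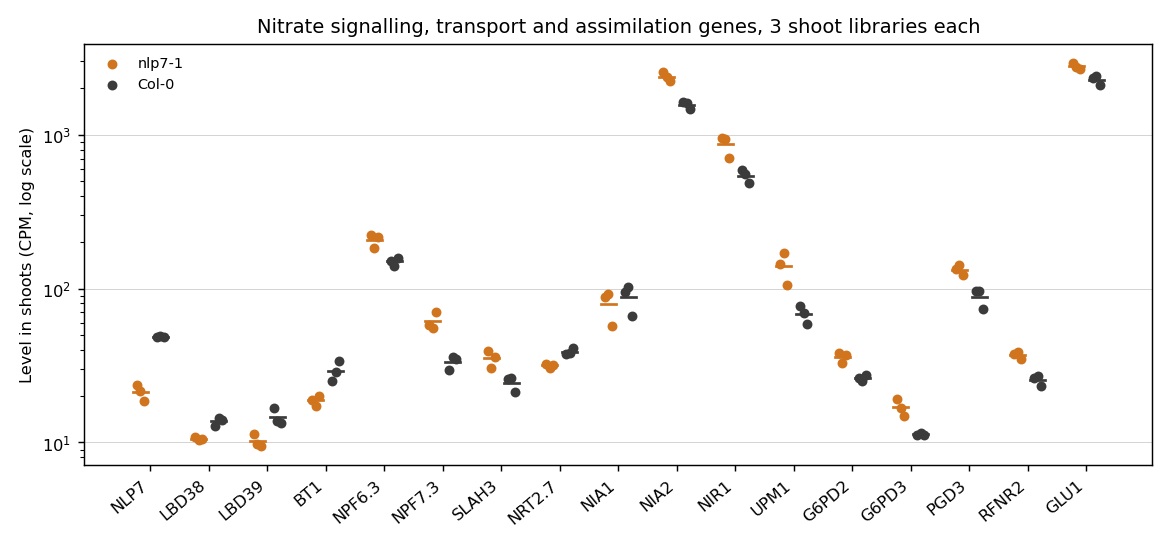
Level in CPM on a log scale of 17 genes of nitrate signalling, transport and assimilation in the 3 nlp7-1 (orange, left) and 3 Col-0 (dark, right) shoot libraries, 1 point per library with a bar at the mean. NLP7, LBD38, LBD39, BT1 and NRT2.7 lie lower in nlp7-1; NIA2, NIR1, UPM1 and the reductant genes lie higher; the NIA1 points overlap.

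For many of these genes the nlp7-1 effect in shoots differed from that in roots. Over all genes, the nlp7-1 effect differed between shoots and roots at 1378 of 21554 genes tested, 6.39%, in a fit of all 36 libraries together; without Col-0 root replicate 2 that count was 802, and without Col-0 shoot replicate 3 it was 832. NIR1 was lower in nlp7-1 roots, at a mean of 648 CPM against 993 CPM in Col-0 roots, so that the shoot effect minus the root effect came to 1.30 ± 0.17 on the log2 scale, with an edgeR adjusted p of 9.78e-06. NPF7.3 averaged 83.9 CPM in nlp7-1 roots and 253 CPM in Col-0 roots, and its effect differed by 2.47 ± 0.17. The sign turned as well for NPF6.3, at 0.47 in shoots and -1.05 in roots, for G6PD2, at 0.45 and -0.55, for G6PD3, at 0.59 and -0.64, for RFNR2, at 0.53 and -0.51, and for FD3, at 0.47 and -0.34. Of the 11 pentose phosphate and reductant genes, 7 differed between the tissues, and 6 were called lower in nlp7-1 roots, where 3.17% of all genes tested were.

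Other genes fell in both tissues or changed in opposite ways. LBD39 and BT1 fell in shoots and fell more in roots, with root changes of -1.40 and -1.69, and the differences between tissues were 0.88 ± 0.13 and 1.06 ± 0.19. DUR3, a urea transporter chosen after its values were seen, was at 13.1, 13.9 and 13.2 CPM in nlp7-1 shoots and 21.3, 21.8 and 32.4 CPM in Col-0 shoots, a fall of 0.90 on the log2 scale. In roots DUR3 averaged 69.1 CPM in nlp7-1 and 16.3 CPM in Col-0, a rise of 2.08, and the effects differed by -2.98 ± 0.19. SPX1, a phosphate sensor protein, was called at 0.47 in shoots, where the call was lost without nlp7-1 replicate 2 or 3 or Col-0 replicate 1 or 2 (edgeR adjusted p of 0.0606 to 0.132), and fell by 1.00 in roots. Of 20 phosphate starvation genes tested in shoots 3 were called higher, 5 without nlp7-1 replicate 1, and none lower, whereas 9 were called lower in roots, and the effect differed for 10. Over all tested genes 4.84% were called higher in shoots, 3.17% lower in roots, and 6.39% differed. MGD3, a galactolipid synthase of phosphate-starved plants, was at 7.46, 5.07 and 6.15 CPM in nlp7-1 shoots and 3.35, 1.56 and 2.99 CPM in Col-0 shoots.

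**Figure D3:**
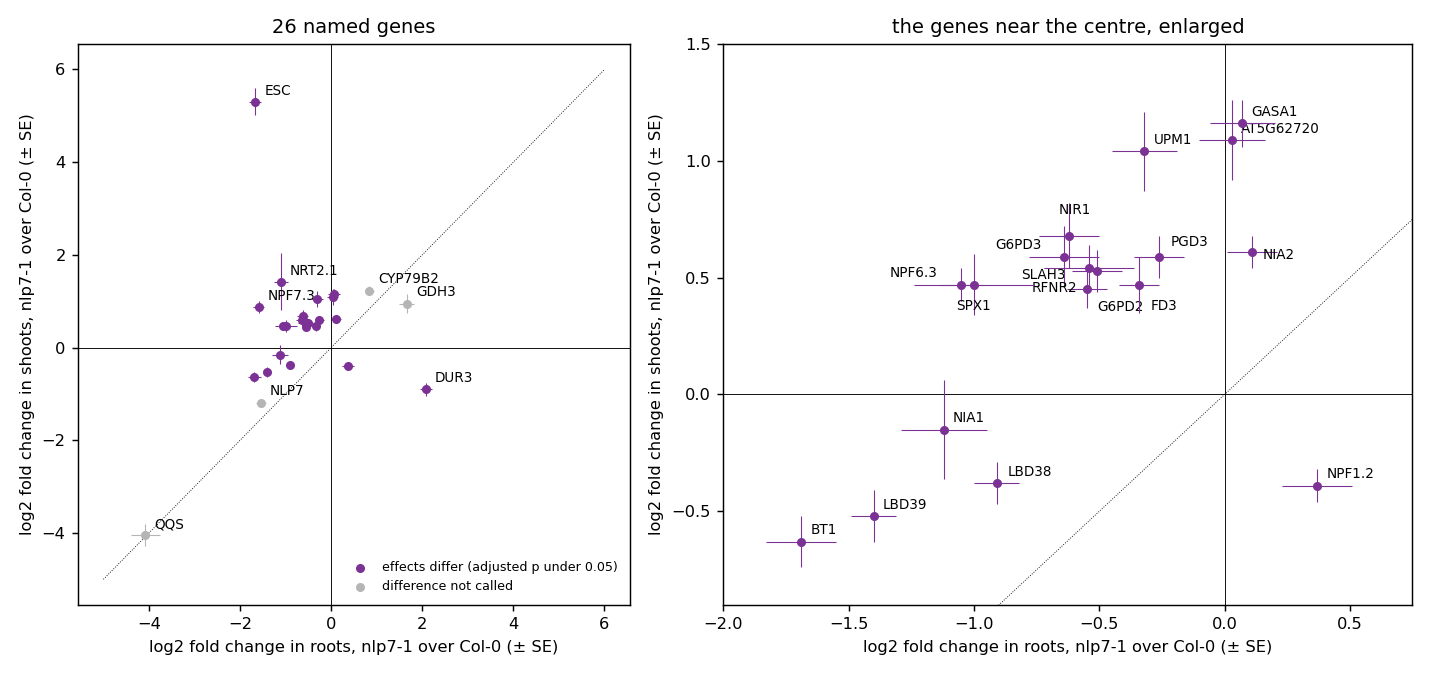
Log2 fold change of nlp7-1 over Col-0 in shoots (y axis) against roots (x axis) for 26 named genes, with SE bars; the right panel enlarges the centre, and purple marks genes whose effect differed between tissues. NIR1, NPF6.3, NPF7.3 and the reductant genes lie at upper left, higher in shoots and lower in roots of nlp7-1, DUR3 at lower right, and NLP7, QQS, GDH3 and CYP79B2 near the dotted line of equal effect.

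The double mutant nlp2-3 nlp7-1 gives a second set of values for the same genes, measured against the same Col-0 libraries, with 31.1% of all tested genes called. In its shoots NIR1 was at -0.36, UPM1 at -0.26, RFNR2 at -0.39, G6PD3 at -0.26 and PGD3 at -0.27 on the log2 scale over Col-0, of which RFNR2 and PGD3 were called. NIA2 was at 0.38 and NIA1 at -1.32, both called, while NPF7.3 stood at 1.60, SLAH3 at 1.30 and CLCA at 1.00. Thus the reductant genes that rose in nlp7-1 did not stand above Col-0 in the double mutant, apart from FD3 at 0.31, and the transporters did. UMAMIT36, of a family of amino acid exporters, was at 82.1, 82 and 70.5 CPM in nlp7-1 shoots and 31.6, 22.7 and 32.2 CPM in Col-0 shoots, a change of 1.44 ± 0.26, and stood at -0.04 in the double mutant.

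Salicylate defence was the group with the largest share of calls among the 44 gene lists. Of its 28 genes, all tested, 16 fell (57.1%) and none rose, with a median log2 change of -1.15, whereas 4.93% of all tested genes fell. PR1, the classical marker of salicylate responses, was at 8.74, 8.29 and 3.01 CPM in nlp7-1 and 44.3, 44.1 and 77.8 CPM in Col-0. The highest nlp7-1 library lay far below the lowest Col-0 library, though PR1 is among the widest changes, which were picked from genes without overlap. The log2 fold change was -3.01 ± 0.47, with an edgeR adjusted p of 0.0015. PR2, a glucanase, was at 69.9, 84.4 and 64.6 CPM in nlp7-1 and 135, 168 and 224 CPM in Col-0, and PR5, a thaumatin-like protein, at 62.4, 64.9 and 57.5 CPM in nlp7-1 and 123, 157 and 181 CPM in Col-0.

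The lowered genes covered several steps of the pathway. Among synthesis genes, ALD1, which makes the precursor of pipecolic acid, was at 1.44, 1.51 and 0.449 CPM in nlp7-1 and 6.94, 4.18 and 7.06 CPM in Col-0. PBS3, which conjugates isochorismate to glutamate, was at 10.7, 10.3 and 9.74 CPM in nlp7-1 and 18.7, 18.8 and 25.6 CPM in Col-0. Their log2 fold changes were -2.37 ± 0.45 and -1.03 ± 0.12, whereas ICS1, the isochorismate synthase that precedes PBS3, was not called, at -0.27 with overlapping groups. The lipase-like immune regulators EDS1 and PAD4 fell by 0.56 and 0.54, their partner SAG101 by 0.37, and the transcription factor WRKY54 by 1.46. The EDS1 call was lost in a fit of the 6 libraries alone (edgeR adjusted p = 0.0836), and that of SAG101 without nlp7-1 replicate 2 (0.0733) or Col-0 replicate 3 (0.0658). The receptor NPR1, at -0.27, the transcription factor WRKY70, at -0.92 with an edgeR adjusted p of 0.0563, and FMO1, which completes N-hydroxypipecolic acid, at -1.51 with 0.0582, were not called.

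Genes that act downstream of salicylate or remove it were also lower. DLO1, a salicylate hydroxylase, was at 7.04, 6.7 and 3.46 CPM in nlp7-1 and 19.6, 20.6 and 29.3 CPM in Col-0, a log2 change of -1.99 ± 0.39. NIMIN2, which binds NPR1, fell by 1.64, PNP-A, a secreted natriuretic peptide, by 1.63 and LURP1, a gene of resistance to oomycetes, by 1.65. The glucosyltransferase gene UGT76B1 was called at -2.02, but that call was lost on leaving out any library but Col-0 replicate 2, with edgeR adjusted p of 0.0553 to 0.16. PR2, PR5, EDS1, PAD4, PBS3, WRKY54, ICS1, WRKY70, FMO1 and NPR1 were named after their values were seen.

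Of the 6 libraries, nlp7-1 replicate 3 was the lowest for 13 of the 28 salicylate genes, PR1, ALD1 and DLO1 among them, and Col-0 replicate 3 was the highest for 26. Summed over the 28 genes, the level was 490 to 513 CPM in the nlp7-1 libraries and 849 to 1246 CPM in the Col-0 libraries. Without nlp7-1 replicate 3, 15 of the 28 genes were called lower, and without Col-0 replicate 3, 13, beside 4.93% of all tested genes with all libraries. For PR1, nlp2-3 nlp7-1, nlp2-3 and nlp2-2 shoots averaged 4.42 ± 3.06, 1.08 ± 0.75 and 3.14 ± 1.91 CPM (SD, n = 3 each), and Col-4 shoots 51.6 ± 11.3 CPM (SD, n = 3). PR1 was thus lower on average in each of the 4 mutant genotypes than in either wild type. In roots, PR1 was at 0 in nlp7-1 and in Col-0, and 2 genes of the list were called higher and none lower, beside 4.04% and 3.17% of all genes tested there. The effect differed between tissues for 11 genes of the list, among them DLO1, ALD1 and PBS3, beside 6.39% of all genes tested.

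Genes of 3 families tied to pathogen sensing were called lower at shares above the 4.93% of all tested genes. Of 42 tested receptor-like protein genes (RLP), a family of cell surface receptors without a kinase domain, 19 fell and none rose, with a median of -0.80, and the number lower ranged from 14 to 17 on leaving out each library. RLP53 and RLP43, named after their values were seen, were at -2.92 and -2.31. Of 32 tested cysteine-rich receptor kinases 10 fell and none rose. Of 49 WRKY transcription factors 7 fell and none rose, and 4 were called lower without nlp7-1 replicate 2 or without Col-0 replicate 3. PAD3, the last enzyme of camalexin synthesis, was at 2.08, 2.19 and 1.66 CPM in nlp7-1 and 5.37, 5.82 and 11.9 CPM in Col-0, a change of -1.93 ± 0.32. The glutathione transferase genes GSTF6 and GSTF7 were called lower too, but they are near-identical copies, and both calls were lost without nlp7-1 replicate 1 or 3 or Col-0 replicate 3, and that of GSTF6 also without nlp7-1 replicate 2, with edgeR adjusted p of 0.0615 to 0.139. Of 19 tested genes of flagellin-type pattern-triggered responses, 1 was called higher and 1 lower, and leaving out a library made either count 1 or 2.

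**Figure D4:**
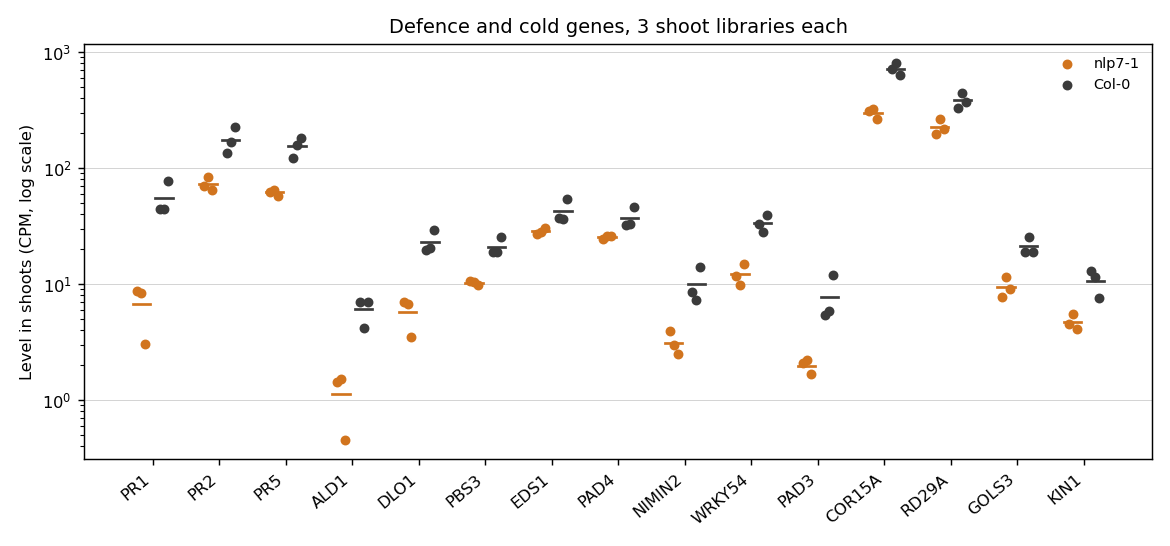
Level in CPM on a log scale of 11 defence genes and 4 cold-responsive genes in the 3 nlp7-1 (orange, left) and 3 Col-0 (dark, right) shoot libraries, 1 point per library with a bar at the mean. All 15 genes have every nlp7-1 point below every Col-0 point, from PR1, with means of 6.68 and 55.4 CPM, to COR15A, with means of 301 and 719 CPM. PR1, DLO1 and NIMIN2 are among the widest changes, which were picked from genes without overlap. The other genes shown were also chosen on these values, as the widest called members of their lists or after their values were seen. In the whole lists, 21 of 28 tested salicylate genes and 17 of 31 tested cold, drought and abscisic acid genes did not overlap. Of all tested genes 28.4% did not overlap, in either direction.

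Among 31 tested cold, drought and abscisic acid genes, 14 were called lower, 1 higher and 16 in neither direction, with a median log2 change of -0.42. Over all tested genes 4.93% were called lower and 4.84% higher. The promoters of 4 of the lowered genes are shown because they carry the best-known elements of these responses, the core of the dehydration-responsive element (CCGAC) and the abscisic acid-responsive element (ACGTGGC). Each line gives the 250 bases before the annotated gene start in RefSeq TAIR10.1, read 5′ to 3′ on the gene's strand, with matches to either element on either strand in capitals.
COR15A, chr2:17712331-17712580, minus strand: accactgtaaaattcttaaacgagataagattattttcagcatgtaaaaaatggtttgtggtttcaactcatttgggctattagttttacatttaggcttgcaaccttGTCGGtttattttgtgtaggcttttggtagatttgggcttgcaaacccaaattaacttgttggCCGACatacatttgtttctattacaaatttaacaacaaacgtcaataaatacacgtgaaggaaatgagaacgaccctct
RD29A, chr5:21240467-21240716, plus strand: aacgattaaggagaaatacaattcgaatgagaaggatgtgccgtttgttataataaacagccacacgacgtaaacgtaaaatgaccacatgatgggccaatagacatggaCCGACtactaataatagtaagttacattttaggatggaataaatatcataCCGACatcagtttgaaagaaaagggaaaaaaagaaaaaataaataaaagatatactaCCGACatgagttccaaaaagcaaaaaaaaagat
RD29B, chr5:21236771-21237020, plus strand: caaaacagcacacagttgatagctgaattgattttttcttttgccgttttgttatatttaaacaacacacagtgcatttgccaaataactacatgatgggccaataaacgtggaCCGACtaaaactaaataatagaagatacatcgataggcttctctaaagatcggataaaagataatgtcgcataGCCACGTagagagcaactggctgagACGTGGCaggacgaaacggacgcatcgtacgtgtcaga
GOLS3, chr1:3019389-3019638, plus strand: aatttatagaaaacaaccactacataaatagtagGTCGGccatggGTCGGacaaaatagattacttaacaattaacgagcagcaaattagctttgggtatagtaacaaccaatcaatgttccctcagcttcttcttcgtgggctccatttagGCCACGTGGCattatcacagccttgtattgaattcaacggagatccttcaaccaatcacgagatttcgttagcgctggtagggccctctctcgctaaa

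COR15A, whose product protects chloroplast membranes in the cold, was at 311, 326 and 266 CPM in nlp7-1 and 715, 808 and 635 CPM in Col-0. RD29A, a classical reporter gene of cold and drought, was at 195, 267 and 219 CPM in nlp7-1 and 332, 445 and 374 CPM in Col-0. GOLS3, a galactinol synthase of the cold response, was at 7.68, 11.5 and 9.07 CPM in nlp7-1 and 18.9, 25.5 and 19 CPM in Col-0. All nlp7-1 values lay below all Col-0 values for these 3 genes. COR15A and GOLS3 were picked as widest called members of the list and RD29A after its values were seen. Of the 31 tested genes of the list 17 had no overlap between the groups, beside 28.4% of all tested genes. The log2 fold changes were -1.26 ± 0.13, -0.76 ± 0.16 and -1.17 ± 0.13, and -1.18 ± 0.21 for KIN1, with edgeR adjusted p of 4.9e-05, 0.0116, 2.58e-06 and 0.00125. The RD29A call was lost without nlp7-1 replicate 1 (edgeR adjusted p = 0.0545). RD29B, at -1.62 with levels of at most 3.1 CPM, lost its call without nlp7-1 replicate 2 or 3 or Col-0 replicate 1 or 2, with edgeR adjusted p of 0.0544 to 0.172.

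Also lower were GOLS2, the phosphatases HAI2 and ABI2, the dehydrin RAB18 and the factor ABF3, by 1.05, 1.02, 0.44, 0.67 and 0.36 on the log2 scale. ABF3 was also called lower in Col-4 than in Col-0, at -0.34, so that its fall cannot be told apart from a difference between the lines. The HAI2 call was lost without nlp7-1 replicate 1 or 3 or Col-0 replicate 2, with edgeR adjusted p of 0.0657 to 0.12. NCED3, the limiting enzyme of abscisic acid synthesis in drought, was at -0.77 with overlapping groups, and its call was lost without nlp7-1 replicate 1 or 2 or Col-0 replicate 2 or 3, with edgeR adjusted p of 0.116 to 0.221. The member that rose was ERD1, a protease regulatory subunit, at 0.44. GOLS2, HAI2, ABI2, RAB18, ABF3 and ERD1 were named after their values were seen. Leaving out nlp7-1 replicate 1 or Col-0 replicate 2 lowered the number of members called lower to 9. The core CCGAC lay in 6 of the 14 promoters of the lowered members and in 11 of all 31 tested, and in 12% of all 27443 promoters of the same length. The element ACGTGGC lay in 2 of the 14 and in 3.37% of all promoters. The letters TTGACC, 1 form of the W box that WRKY factors bind, lay in none of the 28 promoters of the salicylate list. They lay in 12.2% of all promoters, counted on both strands. Other forms of the W box were not searched, so the count does not tell whether these promoters lack the element. A match is only a stretch of these letters, and the lack of one says only that the letters are not in this window.

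Glucosinolates are sulfur- and nitrogen-containing defence compounds, and genes of their synthesis and breakdown changed in both directions. Of 28 tested genes of this list 9 rose and 4 fell, beside 4.84% and 4.93% of all tested genes. CYP79B2, which turns tryptophan into the precursor of the indole branch, rose to 159, 142 and 166 CPM in nlp7-1, against 68.9, 63.8 and 66.4 CPM in Col-0. Its partner CYP79B3 was at 116, 107 and 125 CPM in nlp7-1 and 61.5, 63.2 and 62.5 CPM in Col-0, and the log2 fold changes were 1.23 ± 0.10 and 0.89 ± 0.12, with edgeR adjusted p of 9.86e-07 and 0.00032. Further along the indole branch CYP83B1 rose by 0.28 ± 0.07 and SOT16 by 0.31 ± 0.06, the CYP83B1 call being lost without nlp7-1 replicate 3 or Col-0 replicate 1 or 2, with edgeR adjusted p of 0.0621 to 0.0859. The myrosinases TGG1 and TGG2, which break glucosinolates down, rose by 0.30 and 0.39.

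In the methionine-derived branch, CYP79F1 fell to 254, 253 and 241 CPM in nlp7-1, against 324, 344 and 333 CPM in Col-0, a log2 change of -0.42 ± 0.06. BCAT4, IPMI1 and IMD1, which lengthen the methionine chain, were called at -0.32, -0.19 and -0.34. The BCAT4 call was lost without Col-0 replicate 3 (edgeR adjusted p = 0.0687) and that of IPMI1 on leaving out any library (0.0707 to 0.142), so that 2 to 3 genes of the list were called lower in those fits. MAM3, of the same step, rose by 0.46 ± 0.10. CYP79F2, a close paralog of CYP79F1 whose reads may be split between the copies, rose by 0.73 ± 0.15. TGG1, TGG2, BCAT4, IPMI1 and IMD1 were named after their values were seen. In roots 19 of the 28 genes were called higher and none lower, beside 4.04% and 3.17% of all genes tested there. The falls of the methionine branch in shoots thus had no counterpart among the called genes in roots. The effect differed between the tissues for 12 of the 28, beside 6.39% of all genes tested.

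Some genes of sugar export and ribosome assembly rose. The share called higher over all tested genes, 4.84%, stands beside each list count of this paragraph. Of 8 tested genes of the SWEET family of sugar transporters 4 rose and none fell, whichever library was left out. SWEET11, which releases sucrose for phloem loading, was at 66.5, 61.1 and 81.4 CPM in nlp7-1 and 41.4, 42.9 and 37.6 CPM in Col-0. Its partner SWEET12 was at 2.69, 2.99 and 4.94 CPM in nlp7-1 and 1.01, 1.07 and 1.25 CPM in Col-0, and SWEET13, named after its values were seen, at 30.5, 30.9 and 38.5 CPM in nlp7-1 and 17.5, 18.4 and 20.5 CPM in Col-0. The log2 fold changes of these 3 transporters were 0.77 ± 0.10, 1.67 ± 0.27 and 0.83 ± 0.10. Of 11 ribosome biogenesis genes 5 rose, among them NUC1 (nucleolin), FIB1 (fibrillarin), NOP56 and RRP5, by 0.35, 0.29, 0.42 and 0.33, and none fell. Of 14 sulfur deficiency genes 5 were called higher, such as SDI1 at 1.09. Without nlp7-1 replicate 1 or 3 a single one of them was called, without Col-0 replicate 2 it was 3, and without Col-0 replicate 1 none.

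Growth genes moved in both directions. Of 25 tested cell wall genes 4 rose and 6 fell, beside 4.84% and 4.93% of all tested genes, with 2 called higher without nlp7-1 replicate 1. The largest falls were those of expansins, which loosen the wall: EXPA8 was at 13, 11.7 and 11.9 CPM in nlp7-1 and 28.8, 24.3 and 32.2 CPM in Col-0. EXPB3 and EXPA1 fell by 0.78 and 0.77, and the wall enzyme gene XTH7 rose by 0.58. XTH7 was also called higher in Col-4 than in Col-0, at 0.38. GA3OX1, which makes active gibberellin, was at 36.9, 36.7 and 33.4 CPM in nlp7-1 and 21.3, 24.3 and 19.9 CPM in Col-0, and GASA1, a gibberellin-regulated peptide, at 274, 293 and 256 CPM in nlp7-1 and 124, 132 and 111 CPM in Col-0. Both sets of values stood apart, with log2 fold changes of 0.71 ± 0.10 and 1.16 ± 0.10. GASA1 also belongs to the widest changes, which had to be free of overlap to be picked. IPT3, a nitrate-responsive enzyme of cytokinin synthesis, fell by 0.70 ± 0.14, and SPL4, a flowering-time factor, rose to 8.16, 7.34 and 8.98 CPM in nlp7-1, against 3, 2.71 and 2.82 CPM in Col-0. CER4, which makes the alcohols of leaf wax, fell by 1.75 ± 0.26.

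Of 38 photosystem and antenna genes 2 were called, both lower, a share close to the 4.93% of all tested genes, and the list's median was -0.07. In limma on log2(FPKM + 1) 6 of them were called lower. By edgeR 11 had an unadjusted p under 0.05, 10 of them lower, and 30 of the 38 log2 changes were negative, most of them small. None of 20 circadian clock genes, 24 cell cycle genes, 14 heat shock genes or 15 auxin response genes was called by edgeR at an adjusted p under 0.05, and limma called none of them either. DESeq2 called 1 clock gene and 1 heat shock gene, both lower, and a fit of the 6 libraries alone called 1 clock gene and 1 cell cycle gene lower. On leaving out single libraries, at most 1 heat shock gene and 1 auxin response gene were called lower. At an unadjusted p under 0.05 edgeR had 5 clock, 4 cell cycle, 1 heat shock and 2 auxin response genes, beside 22.7% of all tested genes. The early light-induced proteins ELIP1 and ELIP2, which protect the photosynthetic apparatus under strong light, rose, with ELIP1 at 134, 160 and 143 CPM in nlp7-1 and 56.5, 69.9 and 50.6 CPM in Col-0. Their log2 fold changes were 1.30 ± 0.14 and 1.29 ± 0.20.

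**Figure D5:**
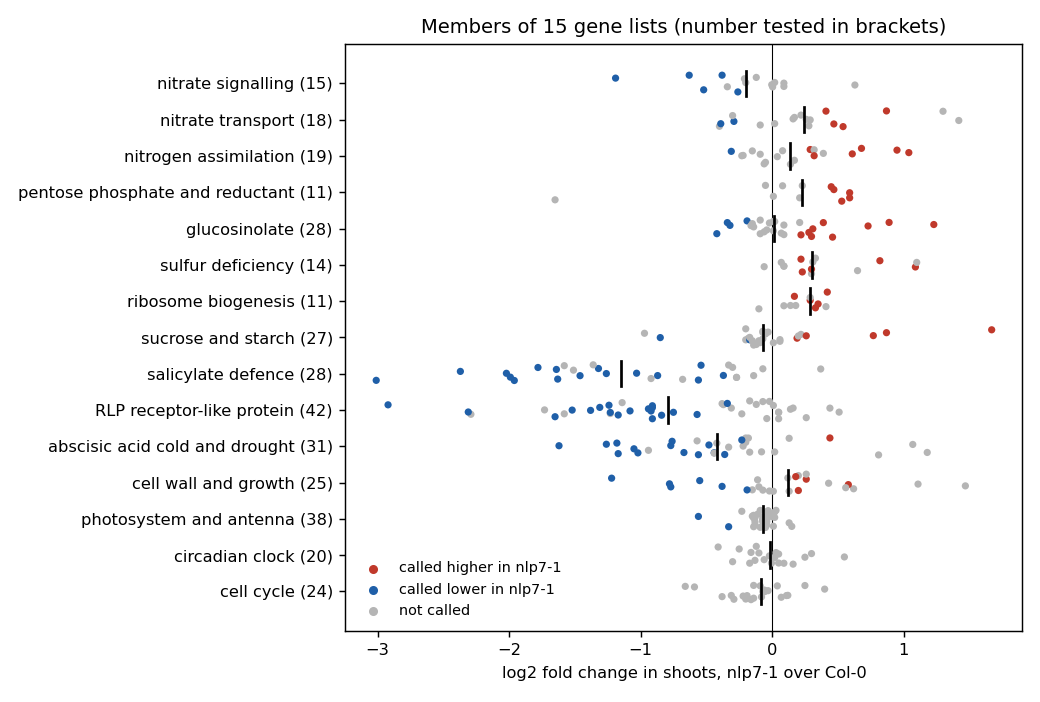
Log2 fold change in shoots, nlp7-1 over Col-0, of the tested members of 15 gene lists, 1 point per gene, with genes called higher in red, called lower in blue and not called in grey, and a black bar at each list's median. The salicylate list, with a median of -1.15, and the receptor-like proteins, at -0.80, lie mostly to the left of 0, with 9 of 42 receptor-like protein genes to its right, the pentose phosphate list holds 5 red points and no blue one, and the clock and cell cycle lists hold no called gene.

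The widest changes belonged to a handful of genes, and comparing the lines sorted them into 2 kinds. ESC, an AT-hook DNA-binding protein that restrains stem elongation, was at 15.2, 13.8 and 11.3 CPM in nlp7-1 and 0.384, 0.123 and 0.543 CPM in Col-0, a log2 change of 5.30 ± 0.29. It averaged 14.7 ± 0.96 CPM in nlp2-3 nlp7-1 and at most 0.521 CPM in nlp2-2, nlp2-3 and Col-4 shoots, and its tested neighbours AT1G20890 and AT1G20910 were not called, at -0.01 and 0.29. In roots ESC went the other way, at 19.5 CPM in nlp7-1 and 61.8 CPM in Col-0. AT1G75945, an uncharacterised protein gene, was at 7.81, 9.61 and 8.13 CPM in nlp7-1 shoots and 0, 0.041 and 0.163 CPM in Col-0 shoots, and averaged 12.3 ± 1.48 CPM in the double mutant. Both genes were thus high in shoots of the 2 genotypes that carry nlp7-1 and close to absent in shoots of the other 4. Since both genotypes carry the same nlp7-1 allele, loss of NLP7 cannot be told apart from another difference of that line.

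For the other kind, Col-0 stood apart from Col-4 as well. AT3G05170, annotated as a member of the phosphoglycerate mutase family, was at 4.35, 4.16 and 3.82 CPM in nlp7-1 shoots and had no count in any of the 3 Col-0 shoot libraries, at least 97.7-fold higher against a floor of 3 counts over the 3 Col-0 libraries. All 15 other shoot libraries of the series held 2.6 to 5.11 CPM of it. QQS, an orphan gene linked to leaf starch, was at 1.44, 1.85 and 1.84 CPM in nlp7-1 and 27.5, 27.1 and 30.3 CPM in Col-0, and it was at 0.865 to 4.52 CPM in the 15 libraries that are not Col-0. The noncoding RNA gene AT3G05945 was the reverse, at 7.07 to 16.9 CPM in those 15 and 1.74 to 3.12 CPM in Col-0. AT5G24240, a phosphatidylinositol 4-kinase-like gene, was at 0.288, 0.681 and 1.08 CPM in nlp7-1 and 33.3, 36.4 and 43.7 CPM in Col-0, with means of 0.203 CPM in Col-4 and 29.2 CPM in nlp2-3. For these genes the difference cannot be told apart from a difference between seed lines. AT1G75945, AT3G05170, AT5G24240 and AT3G05945 were named after their values were seen.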

How the data were processed

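Total RNA of 36 root and shoot samples was sequenced. The authors deposited raw counts per gene for 34218 features (32833 gene loci and 1385 other RNA features) and FPKM values for the same features. HISAT2, HTSeq and TAIR10 are named per the submitters' processing notes, while versions, gene models and strand setting are not given in the sources used here. Counts of overlapping genes and near-identical paralogs (COR15A and COR15B, KIN1 and COR6.6, CYP79F1 and CYP79F2, GSTF6 and GSTF7) are therefore uncertain, and 28 of the 142 named genes overlap another locus. Gene names, 250-base promoters and their positions come from RefSeq TAIR10.1, which holds 32548 of the loci.

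Genes were tested with edgeR 4.0.16 (R 4.3.3, filterByExpr with a minimum count of 10, TMM, robust quasi-likelihood fit) on the 18 shoot libraries with 1 mean per genotype, and the difference between tissues and the root values on all 36. The double mutant and Col-4 comparisons share the Col-0 libraries. The script was tested on simulated data. Alternatives used DESeq2 1.42.0, limma 3.58.1 on log2(FPKM + 1) or log2(FPKM + 0.1), other scalings and filters, and left-out libraries. Named genes were the NLP family, 5 further nitrate genes (NPF6.3, NIR1, NIA1, NIA2, NRT2.1), the 12 widest changes in each direction with a symbol, at least 5 CPM and no overlap, all called nitrate genes, and for other lists with at least 3 calls the 4 widest. The rule gave 101 genes, and 41 were added after their values were seen. The members and lists were chosen with earlier results of these data known.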

Additional observations from a re-analysis of the deposited data

Results flagged for a closer look

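The nlp7-1 effect (log2, nlp7-1 over Col-0) differed between shoots and roots for 61 of the 142 named genes by edgeR's interaction test (adjusted p under 0.05, 21554 genes tested, 6.39% of them called). Most named genes were picked on their shoot values, and the shoot effect is part of this difference. A share above that of all genes follows in part from the choice, so the count is no result about the named genes as a set. Each value is the shoot effect minus the root effect.

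Among nitrate and nitrogen genes the difference was 1.30 for NIR1, 1.36 for UPM1, 0.98 for NIA1, 0.50 for NIA2, 1.52 for NPF6.3, 2.47 for NPF7.3, 2.54 for NRT2.1, 1.08 for SLAH3, -0.75 for NPF1.2, -2.98 for DUR3 and 1.06 for AT5G62720. For the signalling genes it was 0.53 for LBD38, 0.88 for LBD39 and 1.06 for BT1, which fell less in shoots. The reductant genes differed by 1.01 (G6PD2), 1.23 (G6PD3), 0.85 (PGD3), 1.04 (RFNR2) and 0.81 (FD3). NLP2, NLP4 and NLP5 differed by -0.53, -0.57 and -0.65, since they were called higher in nlp7-1 roots and not called in shoots.

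Among defence genes the difference was -2.37 for DLO1, -3.56 for ALD1, -1.81 for NIMIN2, -2.01 for UGT76B1, -0.62 for EDS1, -1.63 for PBS3, -1.23 for WRKY54 and -2.48 for FMO1. It was -0.32 for SOT16 of indole glucosinolate synthesis, -0.86, -0.75 and -0.62 for BCAT4, IPMI1 and IMD1 of methionine chain elongation, -0.58 for the phosphatase gene ABI2 and -0.54 for the jasmonate conjugating enzyme gene JAR1.

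Growth and wall genes differed by 1.09 (GASA1), 0.74 (GA3OX1), -1.38 (EXPA8), -0.59 (EXPB3), 0.60 (XTH7), -0.59 (ATHB2), -0.73 (IPT3), 1.37 (SMZ) and -2.25 (CER4). Ribosome biogenesis genes differed by 0.59 (NOP56), 0.56 (NUC1), 0.52 (RRP5) and 0.50 (FIB1). Sugar and nutrient genes differed by 1.36 (SWEET11), 0.71 (SWEET13), -0.72 (STP13), 1.05 (MGD3), 1.48 (SPX1) and -0.56 (YSL3). The remaining differences were 6.98 for ESC, 1.20 for BGLU11, -1.75 for ARD3, -3.33 for DIN11, -2.38 for AT5G24240 and 5.99 for AT3G05170, whose Col-0 shoot libraries hold no count, so that its fitted value is no measure of size.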

How the results depend on the processing

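The number of genes called ranged from 955 to 1595 on leaving out each library in turn, with 416 to 806 higher, 539 to 789 lower and 175 to 255 changed at least 2-fold, beside 1870, 926, 944 and 258 with all libraries. The count for the difference between tissues ranged from 802 to 1731, beside 1378. The other settings gave 1599 to 2002 calls outside the blocked fit, and of these alternatives limma on log2(FPKM + 1) alone moved a count by over 1.5 times, to 112 genes changed at least 2-fold, since the added 1 shrinks low genes. No named called gene changed direction in any setting run, and 89 of 127 kept their call in all of them. The libraries were not treated as paired, since the labels name no shared batch and not every same-number correlation was over 0.1. Deviations of same-numbered nlp7-1 and Col-0 libraries correlated at 0.0825, 0.116 and 0.0858 and those of other numbers at -0.0768 to -0.0219, so that each library correlated best with its own number and a pairing remains possible. A replicate block gave 2518 calls and 1568 for the difference between tissues. Depth limits genes under about 1 CPM, and the 3 libraries a group limit small changes.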
